A study of Mus musculus with 4 samples.

Results

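Start sites were described for mouse genes that carry only a provisional name. Members were all sites on the primary chromosomes whose gene symbol was Gm or LOC followed by a number, or ended in Rik, and whose class code was c (contained in an annotated transcript), i (inside an intron) or = (a match of the whole transcript). They made up 2027 of 42207 sites and 1125 of 9838 genes. Of these sites, 1238 belonged to 756 Gm genes, 595 to 239 Rik genes and 194 to 130 LOC genes. Code c was given to 1316 of them, code i to 711 and code = to 0. The 5′ ends of transcripts had been profiled by WTSS-seq (whole transcriptome start site sequencing), which copies RNA depleted of ribosomal RNA with template switching. A read therefore starts at the 5′ end of an RNA or of a fragment of one. The tissue was gastrocnemius muscle of male C57BL/6 mice of about 8 weeks. The KO group held 2 mice with a germline knockout of AMPKα2, which Prkaa2 encodes as one of the catalytic subunits of AMP-activated protein kinase. The authors describe the deletion as a loss of the DNA that codes for part of the catalytic domain. The WT group held 2 wild-type mice, with no other treatment in either group. The deletion was present in all cells of the KO animals, and each library came from 1 animal.

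Provisional symbols cover several kinds of gene. Riken genes were catalogued from full-length mouse cDNA clones, Gm genes were predicted by annotation, and LOC genes were numbered by NCBI until a name is given. Many of them are long noncoding RNAs (lncRNAs), which are transcribed by RNA polymerase II but not translated into a known protein, or pseudogenes, which are copies of other genes that have usually lost their coding function. Processed pseudogenes arose from the mRNA of a parent gene and share most of its sequence, so that a short read of the parent can be placed at the copy. The reads alone do not tell the sources apart, and how reads with several matches were placed in these libraries was not stated in the sources used here.

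Only a few of the sites lay at an annotated gene start, and those with most reads are shown first, since these are places where a cluster of 5′ ends and a known promoter coincide. Of 736 member sites on the strand of a gene with a known start, 18 (2.45%) lay between 250 bases before and 50 bases after it, against 606 of 26900 (2.25%) of the other sites with the same codes. The 6 of them with at least 40 reads are printed 5′ to 3′ on the strand of the gene, from RefSeq windows in build GRCm38.p6, with the bases of the cluster that fall in the window in capitals. They are 4921524J17Rik (chr8:85432792-85433091, minus strand), Gm12300, which RefSeq names Myhas (chr11:67237232-67237531, minus strand), 1700020I14Rik, named Oip5os1 (chr2:119594046-119594345, plus strand), 4933434E20Rik (chr3:90052552-90052851, plus strand), 2310040G24Rik (chr6:86488178-86488477, minus strand) and 1500011K16Rik, named Mtln (chr2:127792439-127792738, minus strand).
4921524J17Rik: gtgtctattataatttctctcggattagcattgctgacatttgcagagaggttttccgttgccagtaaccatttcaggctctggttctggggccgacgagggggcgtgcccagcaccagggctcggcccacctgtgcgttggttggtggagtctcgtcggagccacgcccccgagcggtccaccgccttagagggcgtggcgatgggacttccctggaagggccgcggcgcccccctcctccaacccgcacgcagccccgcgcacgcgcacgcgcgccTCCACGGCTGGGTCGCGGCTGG
Gm12300 (Myhas): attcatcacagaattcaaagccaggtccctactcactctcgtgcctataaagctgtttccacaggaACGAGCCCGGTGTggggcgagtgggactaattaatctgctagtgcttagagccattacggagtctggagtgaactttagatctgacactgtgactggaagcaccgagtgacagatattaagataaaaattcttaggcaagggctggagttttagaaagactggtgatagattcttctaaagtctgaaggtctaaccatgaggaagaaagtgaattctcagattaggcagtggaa
1700020I14Rik (Oip5os1): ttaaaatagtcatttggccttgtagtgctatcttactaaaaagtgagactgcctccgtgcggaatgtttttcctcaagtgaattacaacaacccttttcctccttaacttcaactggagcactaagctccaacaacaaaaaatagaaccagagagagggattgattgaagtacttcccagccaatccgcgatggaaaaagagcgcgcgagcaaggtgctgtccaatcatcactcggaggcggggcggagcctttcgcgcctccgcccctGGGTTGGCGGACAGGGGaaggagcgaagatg
4933434E20Rik: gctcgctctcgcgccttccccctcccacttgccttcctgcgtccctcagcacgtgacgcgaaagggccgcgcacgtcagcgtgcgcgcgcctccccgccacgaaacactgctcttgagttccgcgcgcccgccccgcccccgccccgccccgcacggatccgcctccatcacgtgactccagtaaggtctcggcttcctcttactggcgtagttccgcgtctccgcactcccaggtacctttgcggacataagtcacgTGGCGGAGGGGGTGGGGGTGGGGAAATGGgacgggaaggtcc
2310040G24Rik: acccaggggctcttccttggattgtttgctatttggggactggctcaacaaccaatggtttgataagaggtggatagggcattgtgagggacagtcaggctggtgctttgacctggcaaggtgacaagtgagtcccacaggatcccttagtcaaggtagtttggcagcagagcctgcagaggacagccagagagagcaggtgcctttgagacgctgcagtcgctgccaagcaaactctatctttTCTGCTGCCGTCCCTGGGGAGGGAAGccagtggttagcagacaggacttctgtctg
1500011K16Rik (Mtln): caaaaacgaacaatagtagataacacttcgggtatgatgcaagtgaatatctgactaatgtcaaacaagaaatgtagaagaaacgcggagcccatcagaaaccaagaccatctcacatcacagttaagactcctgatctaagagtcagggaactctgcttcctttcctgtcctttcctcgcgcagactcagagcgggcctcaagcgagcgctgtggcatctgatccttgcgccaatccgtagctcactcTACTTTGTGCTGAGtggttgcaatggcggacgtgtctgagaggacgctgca

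These windows differed in composition and in the motifs they held. The TATA-box letters TATAAA, the CCAAT box and the GC-box letters GGGCGG were searched on both strands, and overlaps between them were allowed. TATAAA was found in 1 of the 6 printed windows and in 13.6% of 32851 RefSeq windows of the same length, CCAAT in 3 of 6 and 37.4%, and GGGCGG in 2 of 6 and 35.7%. The TATAAA stood in the window of Myhas, a lncRNA gene among the fast myosin heavy chain genes, and began 21 bases before the cluster. That cluster lay at -177 from the annotated start and had the code of an intron. The share of G and C ran from 44.3% in the window of Myhas to 68.7% in that of 4933434E20Rik.

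The clusters at these starts carried few reads. The site of Myhas had 4.59 and 16.4 normalized counts in KO replicates 1 and 2 and 43.4 and 85.5 in WT replicates 1 and 2. Both WT libraries lay above both KO libraries. DESeq2 gave a log2 fold change of KO over WT of -2.64 (SE 1.00) and an adjusted p of 0.185, so this site did not pass the threshold of 0.1. The site of Oip5os1, a conserved noncoding RNA also known as Cyrano, had 21 and 27.6 in KO against 24.4 and 40.4 in WT, and the groups overlapped. Mtln encodes mitoregulin, a small protein of the inner mitochondrial membrane. Its site had 3.28 and 14.7 in KO against 9.50 and 12.7 in WT, and the groups overlapped too.

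Pseudogenes were the largest class of gene by number of sites, and lncRNA genes the largest by reads. RefSeq held 1057 of the 1125 genes, 871 under the same symbol, 93 as a synonym and 93 by gene number. Of the 1125 genes, 512 were pseudogenes, 27 of these marked as transcribed, 360 were lncRNA genes, 178 were protein coding, 7 were other RNA genes and 68 were not matched. Sites numbered 884 in pseudogenes, 538 in lncRNA genes and 492 in protein coding genes. Where the site was placed in the gene differed between these classes. In pseudogenes, 866 sites were contained in the annotated transcript and 18 lay in an intron. In lncRNA genes 353 of 538 sites were intronic, and in protein coding genes 291 of 492 were, as the plot of sites by gene type shows. Intronic sites made up 35.1% of the members and 58.7% of the 34505 other sites with the same codes, most of which were in protein coding genes.

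**Figure D1:**
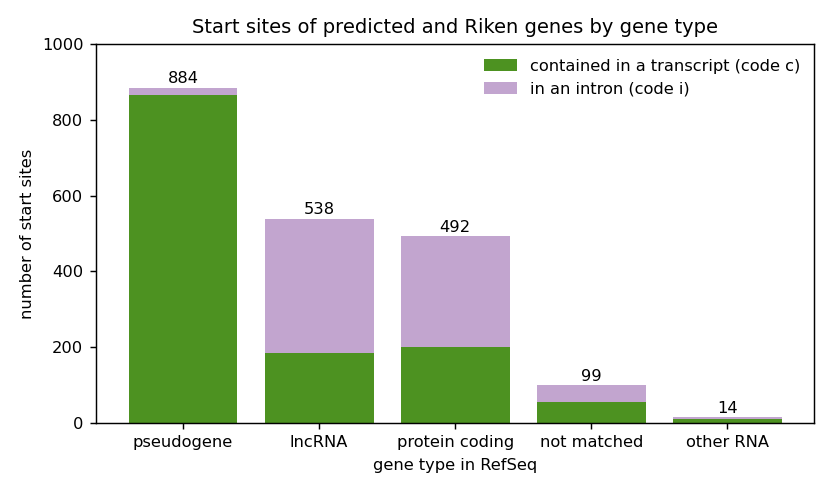
Number of start sites of predicted and Riken genes (y axis) by gene type in RefSeq (x axis), with sites contained in a transcript in green and intronic sites in purple. Pseudogenes hold 884 sites, nearly all of them contained, while intronic sites are the larger part in lncRNA and protein coding genes.

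Clusters at pseudogenes were broad. The median width of a cluster was 35 bases in pseudogenes, 10 bases in protein coding genes and 7.5 bases in lncRNA genes. Over all members it was 18 bases, against 12 bases for the other sites. Pseudogene sites had a median of 23 reads over the 4 libraries, and sites of lncRNA and protein coding genes had 18. Members as a whole had a median of 20 reads (quartiles 13 and 43), and 231 of them reached 100 reads. Several sites per gene were less frequent than elsewhere, with more than 1 site in 35.4% of the member genes and in 65.5% of the other genes. The number of sites per gene was 1.80 against 4.35. No test was made of these differences, since sites are not replicates.

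Intronic sites of these genes lay more often on the opposite strand. Where RefSeq windows gave the strand of the gene, 432 of 508 intronic member sites (85.0%) were on it and 76 (15.0%) were opposite, against 517 of 16171 (3.20%) for other sites. Most of the opposite sites were in lncRNA genes, where 62 of 282 intronic sites were opposite, and 14 of 226 were so in protein coding genes. All 304 contained member sites with a known gene strand were on it, as were all 11246 such other sites. This follows from the codes, since exonic sites on the opposite strand carry code x, which the rule leaves out. The median distance from the annotated start was 12.1 kb for members on the gene strand and 27.5 kb for others. Within 1 kb of the start lay 8.83% of the former and 6.0% of the latter.

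Detection across libraries followed the same classes. A read in every library was found at 1103 of 2027 member sites (54.4%), and at 48.1% of other sites. The share was 64.8% in pseudogenes, 48.4% in protein coding genes and 44.2% in lncRNA genes. Reads in KO only were found at 201 member sites (9.92%) and in WT only at 48 (2.37%), against 12.1% and 2.41% of other sites. The KO libraries were deeper. At the depth of WT replicate 1, the expected number of member sites with a read was 1681 and 1606 in KO against 1573 and 1552 in WT. For other sites the expected share with a read was 83.8% and 77.8% in KO against 73.8% and 70.5% in WT, also higher in both KO libraries. Pseudogenes had the opposite order, with 723 and 730 sites in KO against 741 and 778 in WT.

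A small number of loci held most of the reads. Members had 411343 reads in all, and the 10 richest sites took 70.5% of them. The site of Gm15564, a lncRNA gene on chromosome 16 (35981739 to 35981838, minus strand), alone took 38.3%. It had 45959 and 54550 reads in KO replicates 1 and 2 and 26712 and 30273 in WT replicates 1 and 2, which was 1.58% and 2.37% of all reads in KO and 2.05% and 1.93% in WT. The KO libraries lay on either side of the WT libraries. DESeq2 gave a log2 fold change of 0.12 (SE 0.54) and an adjusted p of 1.00. Levels of different genes were not compared per length, so these counts rank loci by reads only.

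Besides Gm15564, the 10 genes with the highest mean of normalized sums were 6 lncRNA genes and 3 pseudogenes. Gm36876 on chromosome 11 had 3 intronic sites, of which the richest spanned 461 bases, and its summed normalized counts were 6010 and 4499 in KO against 5501 and 9256 in WT. D130009I18Rik on chromosome 14 had 3317 and 2876 in KO against 3891 and 5492 in WT, from 1 intronic site. Both WT libraries lay above both KO libraries at D130009I18Rik, but its DESeq2 adjusted p was 0.853. Gm30821 had 2982 and 3954 in KO against 4384 and 4111 in WT, and LOC108168339 had 2237 and 2359 in KO against 2868 and 3524 in WT. At both genes the KO libraries were the lower ones, with adjusted p-values of 0.998 and 0.949 in the DESeq2 comparison of gene sums. Gm20300 on chromosome 10 drew nearly all its reads from 1 contained site of 28 bases, which had 3762 and 2317 raw reads in KO against 2130 and 2300 in WT. Since the KO libraries were deeper, the order changed after scaling. Its summed normalized counts were 2257 and 2052 in KO against 3028 and 2966 in WT. Both KO libraries were the lower ones, with a DESeq2 adjusted p of 0.947. 9530026P05Rik on chromosome 6 had 5 intronic sites and summed normalized counts of 1415 and 1717 in KO against 1992 and 1541 in WT, where the groups overlapped.

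Of the 3 pseudogenes among these 10 genes, Gm4834 varied most between animals of 1 group. Its summed normalized counts were 9432 and 4116 in KO against 15724 and 1339 in WT. The WT libraries held both the highest and the lowest value, and the log2 fold change was -0.33 with an SE of 1.49. Gm10250 had 2162 and 2373 in KO against 2191 and 3241 in WT. The KO range overlapped the WT range there, and the lowest DESeq2 adjusted p among these 10 genes was 0.853.

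The shares of all reads taken by members were 4.79% and 5.05% in KO against 5.78% and 5.15% in WT. Both WT libraries were above both KO libraries, with means of 4.92% in KO and 5.46% in WT, which cannot be called with 2 animals per group (exact permutation test, two-sided, p = 0.33, the smallest value that 2 against 2 allow). Of reads outside mitochondrial and ribosomal RNA sites, members took 7.57% and 8.02% in KO against 9.18% and 8.85% in WT. Pseudogenes took 1.29% and 0.999% of all reads in KO and 1.82% and 1.30% in WT. Without Gm4834 they took 0.742% and 0.795% in KO against 0.957% and 1.24% in WT, so both WT libraries stayed above both KO libraries. Protein coding members had the opposite order, with 0.428% and 0.436% in KO against 0.389% and 0.303% in WT. The lncRNA genes took 2.98% and 3.55% in KO against 3.51% and 3.49% in WT, where the groups overlapped.

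**Figure D2:**
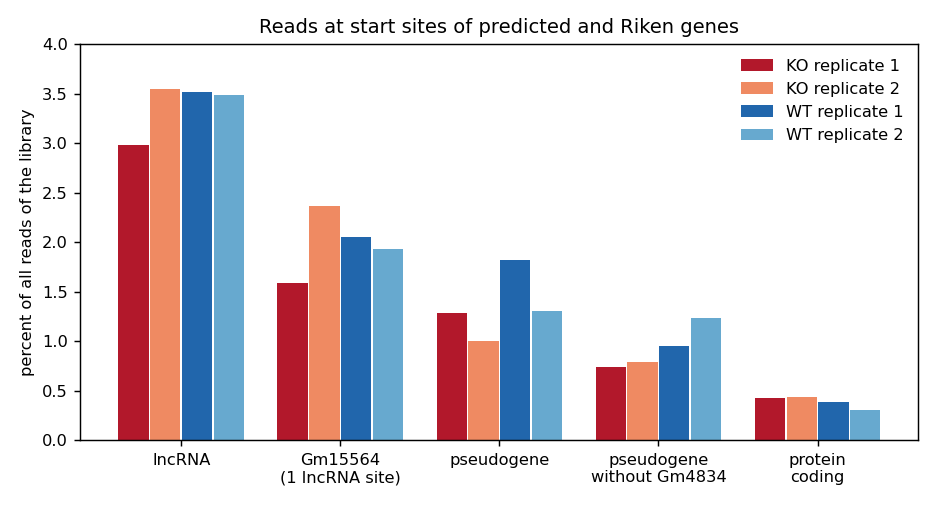
Percent of all reads of a library (y axis) at sites of lncRNA genes, of Gm15564 alone, of pseudogenes with and without Gm4834, and of protein coding genes, with 1 bar per library. Without Gm4834 the pseudogene share is 0.742% and 0.795% in KO against 0.957% and 1.24% in WT.

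Facts of the whole series that touch these values are given here. Library totals were 1300069 to 2900279 reads, with more in each KO library than in either WT library. The summed sites of Prkaa2, the targeted gene, gave 160 and 180 normalized counts in KO against 148 and 172 in WT, so the sum did not separate the groups and gave no check of the labels. All 8 skeletal muscle markers listed had sites, at 16586 to 23905 ppm of all reads in total. Macrophage and leukocyte markers, of which 5 of 7 had sites and Cd68 and C1qa had none, summed to 50.7 to 55.6 ppm in KO and 110 to 175 ppm in WT. Fibroblast markers (7 of 8, none at Postn) summed to 1253 to 1610 ppm in KO and 1869 to 2067 ppm in WT. Slow fibre markers (5 of 6, none at Myl2) had 406 to 511 ppm in KO and 146 to 398 ppm in WT, and blood markers (2 of 5) had 12.2 to 15.9 ppm in KO and 8.29 to 11.5 ppm in WT. Adipocyte, endothelial and nerve markers overlapped between the groups. The part of these differences in the results on predicted and Riken genes was not tested, and in whole muscle fewer cells of a type and less RNA per cell cannot be told apart.

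Differences between KO and WT were then examined at each site. With the Wald test of DESeq2 on the whole table and an adjusted p under 0.1, 14 of the 568 member sites tested (2.46%) were DE-ASSs, against 3.21% of all 11112 sites tested. The other member sites had too few reads for a test. Of the 14, 11 were up-regulated in KO and 3 were down-regulated, where the shares over all tested sites were 2.33% and 0.882%. An unadjusted p under 0.05 was found at 41 of the 568 sites. At each of the 14 sites, both libraries of the higher group lay above both libraries of the lower group, as the plot of called sites shows. The sites were picked by a test on these same counts, so this separation adds no support to the calls. By gene type, 5 of 121 tested lncRNA sites, 6 of 120 protein coding sites, 2 of 295 pseudogene sites and 1 of 24 sites of unmatched genes were called. The quasi-likelihood test of edgeR called 3 of 593 member sites, where 0.712% of all 11242 sites were called, and these were the sites of Gm41750, Gm30958 and 1810030O07Rik.

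**Figure D3:**
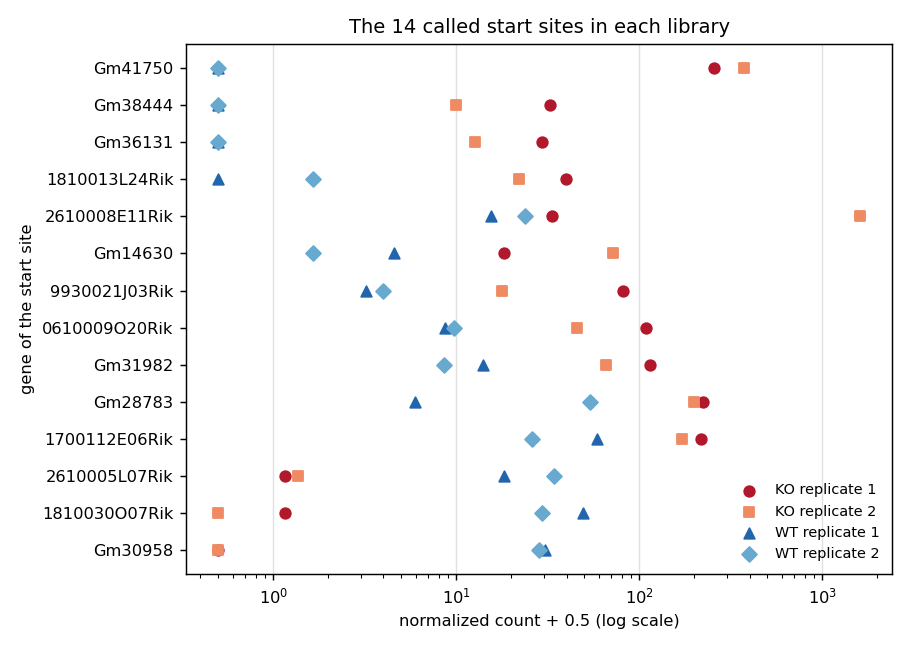
Normalized count plus 0.5 on a log scale (x axis) of the 14 called start sites (y axis, by gene, ordered by log2 fold change), with red and orange marks for KO libraries and blue marks for WT libraries. The sites were picked by a test on these same counts. KO and WT marks do not overlap at any of them, and KO replicate 2 stands apart at 2610008E11Rik.

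The lncRNA gene Gm41750 had the largest difference of the up-regulated sites. Its intronic site at 62094868 to 62094886 of chromosome 18 (minus strand) had 391 and 433 reads in KO against 0 and 0 in WT. Both KO libraries were far from the WT libraries, which held no read at all. Normalized counts were 315 ± 82.8 in KO (SD, n = 2), at least 83.6-fold higher than a floor of 3 counts per WT library, with an adjusted p of 9.41e-08 by DESeq2 and 0.0289 by edgeR. The gene has 3 intronic sites, and their sum was 238 and 385 in KO against 1.41 and 15.3 in WT. Of the 14 sites it alone was called by DESeq2 whichever library was left out (adjusted p 8.86e-06 to 0.00112). The nearest protein coding gene in RefSeq was Sh3tc2, at 79160 bp.

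A pair of neighbouring lncRNA genes on chromosome 1 was up-regulated as well. Gm31982 (17098573 to 17124568) and Gm28783 (17120597 to 17128971) overlap by 3972 bp and lie next to Jph1, which encodes junctophilin 1 of the muscle triad. The intronic site of Gm31982 at 17101328 to 17101332 had 114 and 65.6 normalized counts in KO against 13.6 and 8.09 in WT, which is a log2 difference of 3.06 (SE 0.90) at a DESeq2 adjusted p of 0.0376. The contained site of Gm28783 at 17128901 to 17128909 had 221 and 198 in KO against 5.43 and 53.1 in WT, which is a log2 difference of 2.83 (SE 0.88) at a DESeq2 adjusted p of 0.0595. At Gm28783 the WT libraries differed from each other more than the KO libraries did. Jph1, on the other side of Gm31982, had 912 and 623 in KO against 415 and 557 in WT over 46 sites, and DESeq2 gave a log2 fold change of 0.66 (SE 0.45) and an adjusted p of 0.853. Both KO libraries were above both WT libraries at Jph1, but the difference did not pass the test. The call at Gm31982 was lost without KO replicate 1 (adjusted p 1.00), KO replicate 2 (1.00) or WT replicate 2 (0.338), and that at Gm28783 without KO replicate 1 (0.795), KO replicate 2 (1.00) or WT replicate 1 (0.216), each by DESeq2.

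Other up-regulated intronic sites had few or no reads in WT. Gm36131 on chromosome X had 44 and 14 reads in KO and 0 in both WT libraries, which is at least 5.43-fold higher than the floor. Gm38444 on chromosome 9, a lncRNA gene, had 49 and 11 reads in KO and 0 in both WT libraries, at least 5.53-fold higher. Their DESeq2 adjusted p-values were 0.0843 and 0.0847. The WT libraries, which held no read, were also the shallower ones. Without KO replicate 2 or WT replicate 2 neither site was called (DESeq2 adjusted p 0.386 to 1.00), and without either of the other libraries no adjusted p could be had.

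Among protein coding genes, a site of 0610009O20Rik was up-regulated. RefSeq names this gene Dele1, whose product relays stress of the mitochondria to the integrated stress response. Its contained site at 38262519 to 38262581 of chromosome 18 had 108 and 44.9 normalized counts in KO against 8.14 and 9.24 in WT. It was the only member site of the gene, so the gene sum holds the same reads. The site lay on the plus strand, near the end of the gene with the higher coordinates. Whether its reads came from a start or from a fragment was not tested. Both KO libraries were well above the WT libraries, which were close to each other. DESeq2 gave a log2 fold change of 3.14 (SE 0.97) and an adjusted p of 0.0554, which was 0.179 to 1.00 with 1 library left out.

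1700112E06Rik, which RefSeq names Lrmda, had the most sites of any member gene, 26, all of them intronic. Its called site at 22065631 to 22065635 of chromosome 14 had 217 and 171 normalized counts in KO against 58.4 and 25.4 in WT, which is a log2 difference of 2.22 (SE 0.72) at a DESeq2 adjusted p of 0.0815. The sum over the 26 sites was 428 and 405 in KO against 240 and 141 in WT. Both KO libraries were higher in the sum too, but its log2 fold change of 1.13 (SE 0.48) had a DESeq2 adjusted p of 0.389. The site was called without WT replicate 1 (0.0459) and not without KO replicate 1 (1.00), KO replicate 2 (1.00) or WT replicate 2 (0.533).

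The intronic site of 9930021J03Rik on chromosome 19 had 80.7 and 17.3 normalized counts in KO against 2.71 and 3.47 in WT. From 123 and 20 reads against 2 and 3, the ratio was 17.1 (95% exact counting interval 7.15 to 53.4; DESeq2 adjusted p 0.0724). The intronic site of 1810013L24Rik at 8852970 to 8852974 of chromosome 16 had 60 and 25 reads in KO against 0 and 1 in WT, a ratio of 50.8 (8.87 to 2029; DESeq2 adjusted p 0.0967). KO and WT did not overlap at either site, and neither was called with any 1 library left out for which an adjusted p could be had.

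At 2610008E11Rik most reads came from 1 animal. Its contained site of 172 bases on chromosome 10 had 50 and 1868 reads in KO against 11 and 20 in WT, or 32.8 and 1612 normalized counts in KO against 14.9 and 23.1 in WT. KO replicate 1 was only just above WT replicate 2. The DESeq2 adjusted p was 1.20e-04, and without KO replicate 2 the log2 fold change was 0.76 with an adjusted p of 1.00. The call was also lost without WT replicate 1 (0.506) or WT replicate 2 (0.528) and not without KO replicate 1 (9.97e-08), by DESeq2.

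The 3 down-regulated sites had at most 1 read in each KO library. Gm30958, a lncRNA gene on chromosome 17, had an intronic site at 50381034 to 50381042 with no read in either KO library and 22 and 24 reads in WT, so that KO was at least 12.6-fold lower (DESeq2 adjusted p 0.0102, edgeR 0.0671). The reads of this site were on the plus strand, opposite to the gene. 1810030O07Rik on chromosome X had a contained site with 1 and 0 reads in KO against 36 and 25 in WT, a WT to KO ratio of 102 (95% exact counting interval 17.6 to 4098; DESeq2 adjusted p 0.0178). This site lay at -1204 bp from the RefSeq start of the gene and 525 bp from Med14, which encodes a subunit of the Mediator complex. The transcribed pseudogene 2610005L07Rik on chromosome 8 had 1 and 1 reads in KO against 13 and 29 in WT, a ratio of 35.2 (9.14 to 299.8; DESeq2 adjusted p 0.0818). The WT libraries stood apart from KO at all 3 sites. None of the 3 kept its call without KO replicate 1 or without KO replicate 2, where the DESeq2 log2 fold changes ran from -7.92 to -4.85. Without either WT library, no adjusted p could be had for Gm30958 and 2610005L07Rik.

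Pseudogenes as a class tilted to lower counts in KO, though few passed the test. Of the 295 tested pseudogene sites, 72 (24.4%) had a log2 fold change above 0, where 53.5% of all tested sites and 56.2% and 58.3% of the tested lncRNA and protein coding member sites did. The median log2 fold change of tested sites was -0.55 in pseudogenes, 0.26 in lncRNA genes, 0.25 in protein coding genes and 0.10 over all tested sites. Among these pseudogene sites 7 had an unadjusted p under 0.05. The pseudogene median ran from -0.75 to -0.35 when 1 library was left out, and it was -0.67 with library totals as size factors, which moved the median of all sites by -0.12. This is a description of the sites that passed the filter, with no test of the class.

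**Figure D4:**
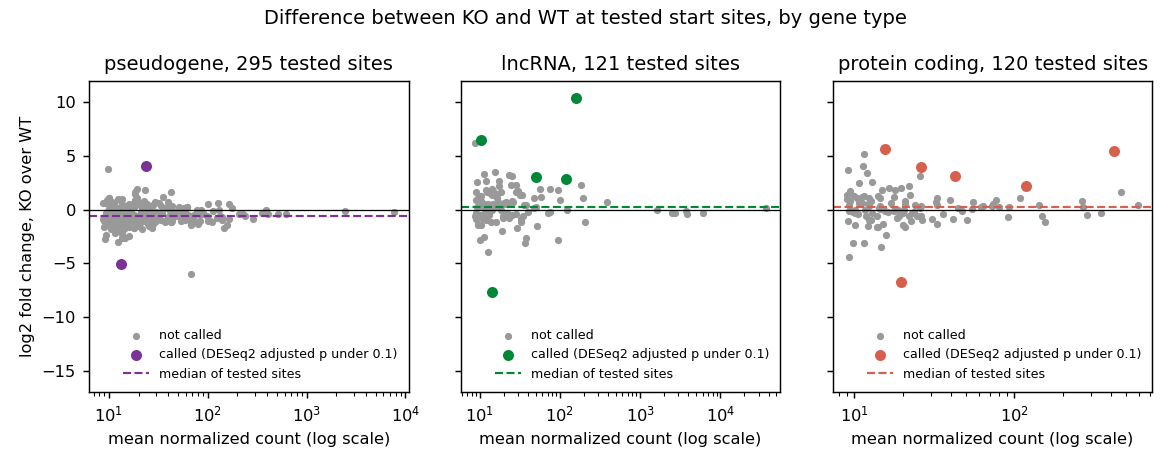
Log2 fold change of KO over WT (y axis) against mean normalized count on a log scale (x axis) for tested sites of pseudogenes, lncRNA genes and protein coding genes. Coloured points are called sites and the dashed line is the median of the tested sites, which is -0.55 for pseudogenes, 0.26 for lncRNA genes and 0.25 for protein coding genes.

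Some pseudogenes with many reads are given as examples, which were chosen after their values were seen and do not measure the tilt of the class. Gm4834 and Gm10250, which had more reads than these, overlapped between the groups, as given above. Gm13456 on chromosome 2 had summed normalized counts of 236 and 320 in KO against 606 and 707 in WT. The KO libraries were well below the WT libraries, but its log2 fold change of -1.24 (SE 0.44) had a DESeq2 adjusted p of 0.187. Gm6368 on chromosome X had 383 and 489 in KO against 604 and 680 in WT, which also did not overlap, with an adjusted p of 0.925 by DESeq2. Gm9892 had 414 and 792 in KO against 648 and 969 in WT, and Gm5778 had 346 and 533 in KO against 340 and 827 in WT. The groups overlapped at both. The single called pseudogene site that was up-regulated was that of Gm14630 on chromosome X, with 17.7 and 71.6 in KO against 4.07 and 1.16 in WT (DESeq2 adjusted p 0.0815, and 0.151 to 1.00 with 1 library left out).

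For 22 pseudogenes the RefSeq symbol names the parent gene. The parent had sites in the table in 17 cases, and in 6 of these 17 the pseudogene had more reads than its parent. For the other 5 no site was found under the parent name taken from that symbol, so no comparison was made. A parent listed under another name could be missed this way. Gm11273, named Cox5b-ps after a subunit of cytochrome c oxidase, had 643 reads against 111 at Cox5b. Gm3837, or Pdcd5-ps, had 506 against 59, and Gm12231, or Atp5pb-ps, named for a subunit of the mitochondrial ATP synthase, had 329 against 43. The opposite held for Gm7338, or Gpx4-ps2, with 242 reads against 5114 at Gpx4, which encodes a glutathione peroxidase that reduces lipid peroxides. Of the 18 with an adjusted p in the gene comparison 0 were called by DESeq2 and 0 by edgeR, and 0 had an unadjusted p under 0.05. Over all genes tested DESeq2 called 1.71% and edgeR 0.901%, so the lack of calls among 18 genes says little about them. Reads of a copy and its parent cannot be told apart where their sequences are the same, so each of these counts is uncertain.

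Gene sums gave a similar number of calls. Sites of a gene were added and tested in the same way for all genes, and 10 of 605 member genes tested (1.65%) were called, against 1.71% of 6242 genes. Of these, 6 were up-regulated (0.945% over all genes) and 4 were down-regulated (0.769% over all genes), and 55 of the 605 member genes had an unadjusted p under 0.05. By edgeR 4 of 491 member genes were called, where 0.901% of 5440 were. Of the 10 genes, 8 also had a called site, but the sums hold the reads of those sites, so this adds no support. Gm41750 led again, with a log2 fold change of 5.19 (SE 0.73) and a DESeq2 adjusted p of 1.79e-09, and it was called in all 13 other settings. Gm36131, 0610009O20Rik, Gm28783, Gm31982 and Gm14630 were the other up-regulated genes. The sums of Gm30958 and 1810030O07Rik were lower in KO, and each held the reads of only 1 site. That site lay on the strand opposite to Gm30958, and at -1204 bp from the start of 1810030O07Rik. Whether these reads came from transcripts of these genes was not tested.

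The other 2 down-regulated genes had no called site. LOC108169013 on chromosome 4 had no read in either KO library and had 7 and 20 reads in WT over 2 sites, so that KO was at least 7.99-fold lower, at an adjusted p of 0.0548 by DESeq2. Gm35154, a lncRNA gene on chromosome 10, had 9.55 and 35.9 summed normalized counts in KO against 316 and 29.3 in WT. Its groups overlapped, since only WT replicate 1 was high. Its DESeq2 adjusted p was 0.0801, it was 0.877 without KO replicate 1, and no adjusted p could be had without WT replicate 1.

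Usage of sites was tested for 100 member genes with several sites, of which 1 was called (diffSpliceDGE of edgeR, Simes method), against 2.23% of 1791 genes. It was the protein coding gene 1810013L24Rik, with 23 sites of which 7 entered the test, at an adjusted p of 0.0536. Its reads shifted between internal sites, as the plot of its sites shows. The site at 22.9 kb from the start took 15.9% and 8.96% of the reads of these 7 sites in KO and 0% and 0.450% in WT. The site at 12.1 kb took 4.51% and 7.89% in KO against 0.327% and 0% in WT. KO was higher at both, and the groups did not overlap. The site at 16.6 kb took 30.0% and 48.0% in KO against 72.9% and 50% in WT, and that at 25.8 kb took 0% in both KO libraries and 4.58% and 3.6% in WT. The sum over the sites of this gene had 287 and 322 normalized counts in KO against 483 and 353 in WT, where DESeq2 gave an adjusted p of 0.976. With any 1 library left out the gene was not called.

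**Figure D5:**
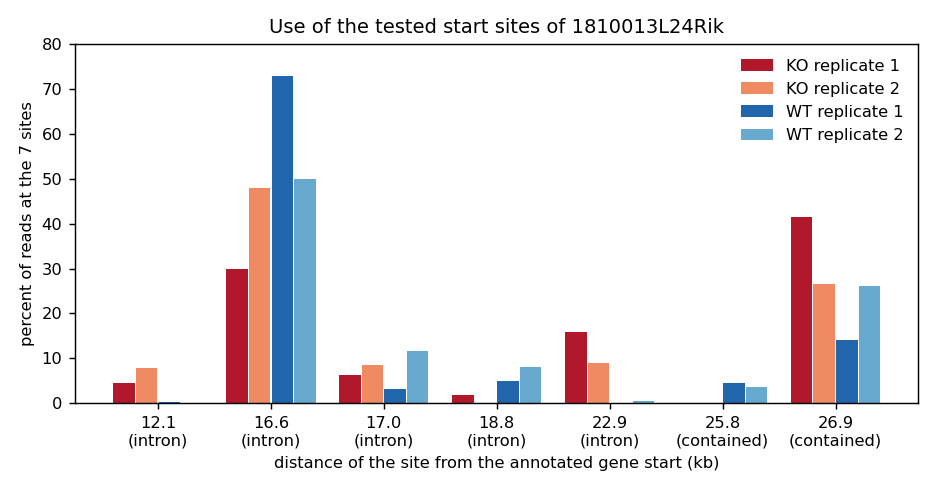
Percent of the reads at the 7 tested sites of 1810013L24Rik (y axis) taken by each site, ordered by distance from the annotated gene start in kb (x axis), with 1 bar per library. The sites at 12.1 kb and 22.9 kb are higher in both KO libraries, and the site at 16.6 kb takes most in WT replicate 1.

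The genes next in order did not pass. 2610008E11Rik (adjusted p 0.162 by the Simes method) drew 98.9% of its tested reads in KO replicate 2 from the site that was called, against 45.9% in KO replicate 1 and 35.5% and 51.3% in WT. Gm20300 (adjusted p 0.166 by the Simes method) had a minor site with 1 and 3 reads in KO against 19 and 19 in WT, under 1% of its reads. Gm8566, a pseudogene, had a site with 0 and 1 reads in KO against 12 and 13 in WT (adjusted p 0.224 by the Simes method). At the minor sites of Gm20300 and Gm8566 both WT libraries were above both KO libraries. The protein coding gene 3830406C13Rik (adjusted p 0.297 by the Simes method) had a contained site of 2 bases with 37 and 21 reads in KO against 1 and 1 in WT.

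Several genes of the table have since been named. RefSeq gives a name to 12 of the lncRNA genes, of which 10 were tested and 0 were called by DESeq2 or edgeR, with 1 at an unadjusted p under 0.05, where DESeq2 called 1.71% of all genes tested. That one was Myhas, with summed normalized counts of 8.36 and 19.3 in KO against 47.8 and 104 in WT, a log2 fold change of -2.48 (SE 0.81) and a DESeq2 adjusted p of 0.116. Both WT libraries were above both KO libraries in the sum as at its start. Morrbid (Gm14005), a lncRNA known from myeloid cells where it acts on Bcl2l11, had 29.3 and 32.4 in KO against 64.6 and 70.1 in WT (DESeq2 adjusted p 0.799). The groups did not overlap there, nor did those of the macrophage and leukocyte markers, which were also lower in KO, and their part in this value was not tested.

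Other named lncRNAs were present at low counts. Norad (2900097C17Rik), which binds Pumilio proteins, had 44.2 and 49 normalized counts in KO against 35.1 and 71.3 in WT over 6 sites. Chaserr (1810026B05Rik), the neighbour and regulator of Chd2, had 129 and 62.2 in KO against 128 and 98.1 in WT over 8 sites. Snhg14 (C230091D08Rik), the imprinted host gene that runs antisense to Ube3a, had 31.6 and 32.4 in KO against 19.7 and 22.9 in WT. Norad and Chaserr overlapped between the groups, and Snhg14 did not. Mir100hg (3110039I08Rik), the host gene of miR-100, had 140 and 126 in KO against 74.5 and 102 in WT over 12 sites. These did not overlap either, but the DESeq2 adjusted p-values of Snhg14 and Mir100hg were 0.998 and 0.973. In KO replicate 1, 120 of the 234 reads of Mir100hg came from an intronic site that was high in this library only. That site had 6 reads in KO replicate 2 and 3 and 4 in WT.

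Named protein coding genes numbered 63, of which 43 were tested and 1, Dele1, was called by DESeq2, which is near the 1.71% of all genes tested, and 4 of the 43 had an unadjusted p under 0.05. Atp5mpl (2010107E04Rik), a small subunit of the mitochondrial ATP synthase, had 16 and 2 reads in KO against 7 and 7 in WT. Mtln had summed normalized counts of 7.16 and 14.9 in KO against 15.5 and 15.3 in WT. Timm29 (1810026J23Rik), a subunit of the TIM22 protein import complex, had 43.6 and 70.9 in KO against 99.8 and 90.4 in WT, and DESeq2 gave a log2 fold change of -0.74 (SE 0.63) and an adjusted p of 0.955. The groups did not overlap at Timm29 and Mtln, but neither difference passed the test. Virma (1110037F02Rik), a subunit of the RNA methyltransferase complex that makes m6A, had 131 and 119 in KO against 101 and 130 in WT, which overlapped. The coding gene with most reads, LOC102634333 (1110002E22Rik in RefSeq), had 884 and 502 in KO against 583 and 642 in WT over 17 sites, with 1 KO library above and 1 below the WT range. Of the other genes with most sites, 1700025G04Rik had 64.5 and 61.3 in KO against 74.5 and 68.8 in WT over 15 sites, and 8030462N17Rik had 136 and 121 in KO against 139 and 185 in WT over 14 sites. KO was lower at both, with a DESeq2 adjusted p of 0.998 for each.

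Reads of a site were at times nearly all from 1 animal. Of the 231 member sites with at least 100 reads, 33 (14.3%) had over 50% of their normalized counts in 1 library, against 21.4% of such sites elsewhere. The most uneven was a contained site of the pseudogene Gm6159 on chromosome 1 (78783973 to 78784020), with 0 and 5 reads in KO against 195 and 2 in WT, where WT replicate 1 held 97.6% of the normalized counts. An intronic site of Mir100hg (3110039I08Rik) had 120 and 6 reads in KO against 3 and 4 in WT, with 85.0% in KO replicate 1. An intronic site of Gm15506 had 125 and 10 reads in KO against 7 and 1 in WT, with 81.0% in KO replicate 1. Each of these 3 sites was high in 1 library and low in its replicate, and their DESeq2 adjusted p-values were 0.575, 0.281 and 0.320.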

How the data were processed

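WTSS-seq counts of 2 KO and 2 WT libraries were used. The deposited table held raw read counts per clustered start site, with 1 column per library, which the authors made by mapping to GRCm38.p5, clustering read ends and assigning Cuffcompare class codes. Mapping and clustering were described only for the sister 3′ libraries, so settings for the 5′ ends are not given in the sources used here. Every site had at least 10 reads in total. No molecular identifiers were described, so PCR copies count as reads, and intervals and floors cover counting error only.

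Sites, and sums per gene over codes c, i and = on the primary chromosomes, were compared over the whole table with DESeq2 (version 1.42.0, R 4.3.3), median-of-ratios size factors, default independent filtering and an adjusted p under 0.1. This filtering required a mean normalized count of 8.76 for sites and 6.60 for genes. An alternative was edgeR (version 4.0.16) with its quasi-likelihood test, TMM factors and filterByExpr, whose diffSpliceDGE tested site usage. Scripts were tested on simulated data. Folds against 0 reads used a floor of 3 counts per library, and ratios with at most 3 counts in each library of the lower group carry a 95% exact counting interval (scipy 1.17.1). Gene types, names and start windows came from RefSeq tables of GRCm38.p6, whose primary chromosomes have the coordinates of p5, matched by symbol, synonym or gene number. No genome sequence was used here.

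Named were the called sites and genes, the 10 genes with the highest mean of normalized sums and the 5 genes with most sites. Also named were the 5 genes with the smallest p for usage, 5 uneven sites, and a few genes with known products. The members, lists and rules were chosen with earlier results of these data known, and examples of pseudogenes and renamed genes were chosen after their values were seen. Scaling by library totals or by positive counts was also added after seeing the data. Depth was 1300069 to 2900279 reads per library, and 3 reads are 1.03 to 2.31 ppm.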

Additional observations from a re-analysis of the deposited data

Results flagged for a closer look

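Sites of genes with the same kinds of symbol that lay outside the rule, because of another class code or a scaffold, numbered 718, of which 200 were tested. DESeq2 called 3 of the 200 higher in KO, where it called 2.33% of all 11112 tested sites higher in KO. All 3 had code x, which marks a site antisense to an exon. The site of A930016O22Rik (chromosome 7, 19420506 to 19420527) had a mean normalized count of 447 in KO and 18.8 in WT, from 636 and 553 reads in KO and 15 and 15 in WT, with adjusted p-values of 6.98e-09 by DESeq2 and 0.0319 by edgeR. The site of Gm15774 (chromosome 7, 120878794 to 120878800) had a mean of 74.2 in KO and 7.84 in WT, with adjusted p-values of 0.0641 by DESeq2 and 0.194 by edgeR. The site of 4930556N13Rik, on a scaffold outside the primary chromosomes, had a mean of 60.5 in KO and 0.578 in WT, from 124 and 46 reads in KO and 0 and 1 in WT, with adjusted p-values of 0.0129 by DESeq2 and 0.0685 by edgeR. At all 3 sites both KO libraries were above both WT libraries. These sites drew attention because they stand above the WT level in rows that the comparisons of predicted and Riken genes did not use.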

How the results depend on the processing

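The 11 up-regulated member sites became 1 by edgeR, 2 with independent filtering off, 5 with library totals or positive counts as size factors, 3 at an adjusted p under 0.05, and 1 to 7 without 1 library. The 3 down-regulated sites became 5 with at least 20 reads per site or with either of those size factors, and 0 to 3 without 1 library. The 6 up-regulated gene sums became 2 by edgeR, 3 at the stricter threshold and 1 to 5 without 1 library, and the 4 down-regulated became 2 by edgeR and at the stricter threshold and 0 to 2 without 1 library. The 1 gene with changed usage became 3 by the gene-level F test, 0 with at least 20 reads (13 at an unadjusted p under 0.05) and 0 to 0 without 1 library (3 to 8 unadjusted). The share difference of -0.54 percentage points became -1.22 outside mitochondrial and ribosomal RNA, and was -0.85 to -0.23 without 1 library. Whether replicate numbers pair the animals was not stated in the sources used here. The correlation of deviations within the 2 pairs was 0.07 over 11112 sites. It cannot decide this, since sites are not replicates and only 2 pairs exist. By DESeq2 with the replicate block there were 3 up-regulated and 2 down-regulated sites, and 4 up-regulated and 2 down-regulated gene sums. Changed usage was called for 0 genes with the block (6 unadjusted). By edgeR with the block 0 and 0 sites were called (27 and 28 unadjusted). Gene sums went the other way, with 8 up-regulated and 3 down-regulated by edgeR with the block against 2 and 2 without it. With the block the leading site of Gm41750 was not called (adjusted p 0.246 by DESeq2 and 0.108 by edgeR), while its gene sum was. Of 298 values of called sites and genes under other settings, 135 kept their call, 123 lost it, 40 had no adjusted p and 0 changed direction. With 1 library left out, the lone library was assumed to vary like the other group. Depth limits calls at sites with few reads, where 0 in WT covers up to 2.31 ppm.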
